A study of Solanum lycopersicum with 16 samples.

Results

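Roots of tomato seedlings (Solanum lycopersicum cv. M82, grown in a greenhouse for 3 weeks) whose potting medium had been submerged in water were compared with roots of control seedlings whose medium had only been saturated with water of the same pH. Both groups were sampled 2 h and 24 h after treatment began, and each flooded group was set against the control roots of its own time. The comparison uses 4 of the 16 samples of the series, namely flood roots and control roots on each of 2 PCR plates. All plants were wild type M82, a cultivar known to carry a mutant allele of SlIDD5 (obscuravenosa), so that every group shares it. Transcripts of 22 targets were measured by qRT-PCR with SYBR Green, against ubiquitin. The targets were 19 SlIDD genes with SlIDD-like1 among them, SlSTOP1, and 2 transcripts labelled CRF5 and STF4. Titles and source names of the samples gave stress and tissue. Other label fields name a different tissue or treatment for some of the same samples, and no target is a marker of root or shoot, so the labelled tissue could not be checked.

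INDETERMINATE DOMAIN (IDD) proteins are plant-specific zinc finger transcription factors with roles in gibberellin signaling, root patterning, gravitropism and starch metabolism. Water around the root slows the diffusion of oxygen, and flooded roots are known to shift toward fermentation and to accumulate ethylene. The family members studied here fall into small groups with Arabidopsis and rice relatives, and several are known for developmental roles rather than for a response to low oxygen.

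The values are threshold cycles (Ct), the PCR cycle at which a well's fluorescence crosses a set level. A lower Ct means more template, and 1 cycle stands for a change of 1 on the log2 scale at full efficiency. Of 384 wells in these groups 355 had a value and 349 were used, with Ct between 14.77 and 30.99. The sheet lists the same names, ubiquitin and SlIDD1 to SlIDD11, beside the wells of both plates, and the labels tie 2 h to one plate and 24 h to the other. Here, instead, each plate was read as holding its own 11 targets, at 2 h in the upper 4 well rows and at 24 h in the lower 4, a layout settled by how well the study's fold change tables follow from it. The times below, and the target names on the second plate, rest on that reading. A target had up to 4 wells per group and time and ubiquitin up to 8. The study states 4 biological samples and 2 technical replicates, but no label links a well to a plant. Each well therefore entered singly, and every p given here is too small if wells share a plant. In RNA from whole roots, fewer cells that express a gene and less RNA per cell cannot be told apart.

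Ubiquitin itself came up earlier in flooded roots. At 2 h it had a mean Ct of 15.17 ± 0.19 (SD, n = 8 wells) in flooded roots and 16.32 ± 0.39 (SD, n = 7 wells) in controls, a change of -1.15 cycles (exact two-sided permutation test, p = 3.11e-04). At 24 h it was 15.27 ± 0.10 (SD, n = 5 wells) against 16.90 ± 0.88 (SD, n = 8 wells), a change of -1.63 cycles (exact two-sided permutation test, p = 0.00155). The plates differed at 24 h, with control means of 17.71 on the first and 16.09 on the second. The SD of 0.88 includes that gap, and the test permuted wells over both plates together. On the first plate, which holds SlIDD1 to SlIDD11, ubiquitin changed by -2.37 cycles, and on the second, which holds the other targets, by -0.86. At 2 h the corresponding changes were -1.35 and -0.89. With no reference 20 of 22 targets also came up earlier at each time, with a median of 1.32 on the log2 scale at 2 h and 1.98 at 24 h. Each log2 fold change below is relative to the mean of ubiquitin over both plates, and is given ± its standard error or with its 95% confidence interval. Where ubiquitin of the same plate changes a call between flooded and control roots, that value is added.

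**Figure D1:**
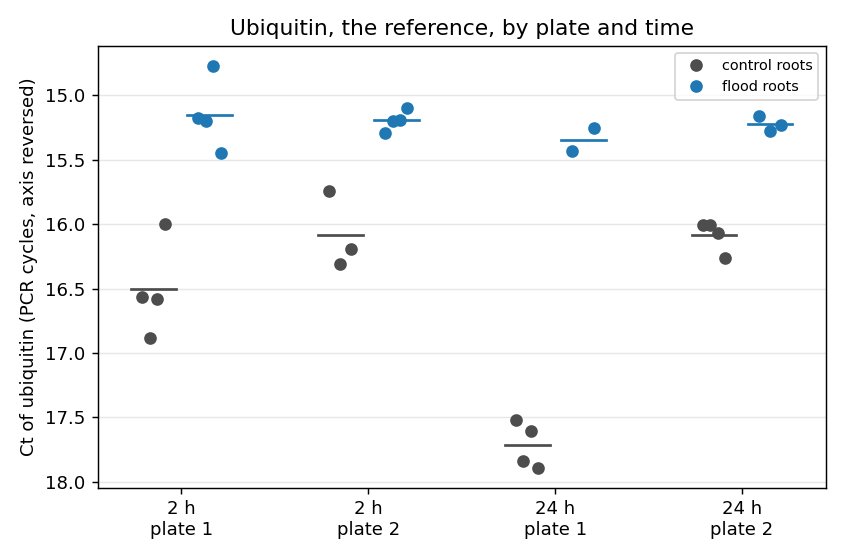
Ct of ubiquitin (vertical axis, PCR cycles, reversed so that earlier wells stand higher) for each well of control roots and flood roots by time and plate; lines mark means. Flooded wells stood above control wells in each panel position, and the gap was widest on plate 1 at 24 h, where the mean change was -2.37 cycles.

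After 2 h of flooding, 9 of 22 targets passed the test (40.9%), of which 7 were higher (31.8%) and 2 lower (9.09%), at an adjusted p under 0.05 from limma with Benjamini-Hochberg adjustment over the 22 targets. SlIDD12, CRF5, SlIDD14, SlIDD6, SlIDD9, SlIDD13 and SlIDD3 rose, and STF4 and SlIDD2 fell. After 24 h, 5 passed (22.7%), with CRF5, SlIDD12 and SlIDD3 higher (13.6%) and STF4 and SlIDD2 lower (9.09%). All 5 had passed at 2 h in the same direction, 4 passed at 2 h alone, and 0 passed at 24 h alone. This pattern depends on the reference: with same-plate ubiquitin SlIDD5, SlIDD17 and SlIDD18 passed at 24 h alone, and SlIDD13 at both times. Over all 22 targets the median log2 fold change was 0.17 at 2 h and 0.35 at 24 h, and 17 of 22 had the same sign at both times. Since most targets and ubiquitin came up earlier together, Ct wells that stand apart are no sign of a call. At 2 h they stood apart in all 9 targets that passed and in 7 of the other 13, and at 24 h in all 5 and in 15 of the other 17.

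**Figure D2:**
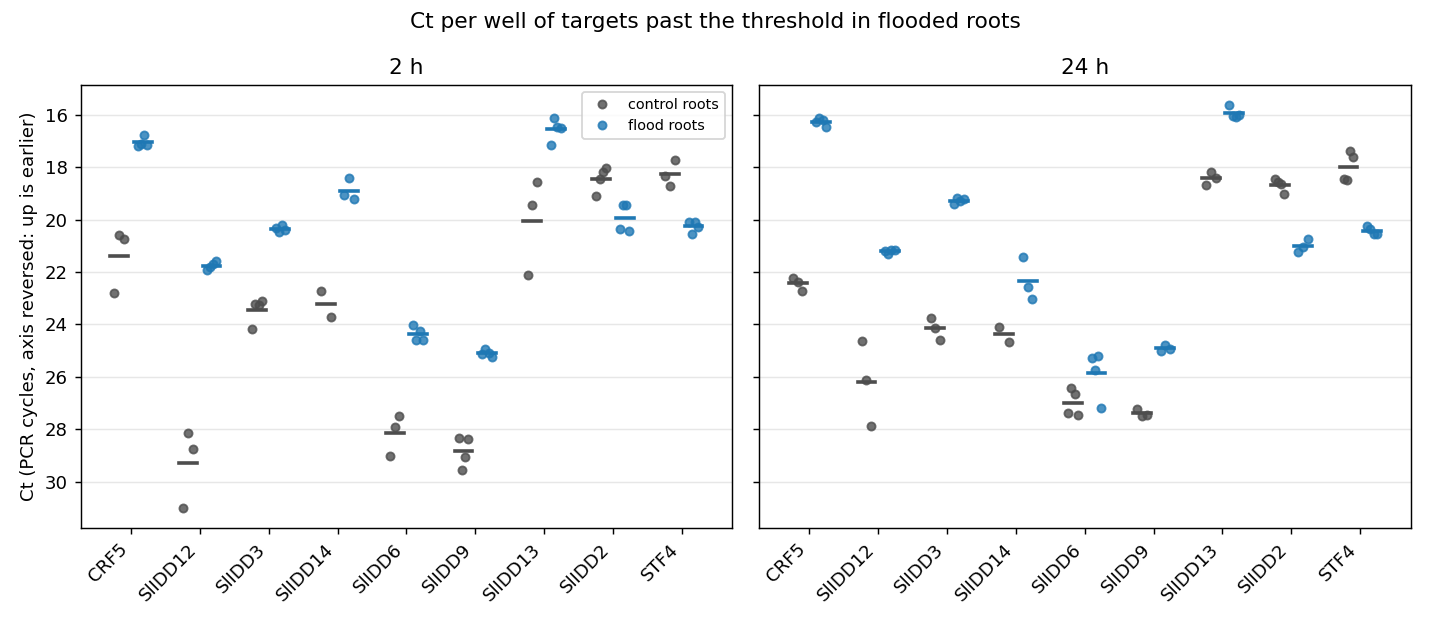
Ct (PCR cycles, axis reversed) of every used well for the 9 targets that passed the test at 2 h or 24 h, in control roots (grey) and flood roots (blue), with means as lines. At 2 h no flooded well overlapped a control well in any of the 9 targets, and STF4 and SlIDD2 were the ones whose flooded wells came up later than controls.

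SlIDD12 (Solyc01g005060, chromosome 1) had the largest fold change of the 22 targets at 2 h. It stands in the SlIDD5 group, whose Arabidopsis and rice relatives act in gravitropism and plant architecture. In control roots its wells at 2 h read Ct 30.99, 28.15 and 28.77, and in flooded roots 21.93, 21.82, 21.68 and 21.58. The flooded wells lay close together and more than 6 cycles before any control well. Relative to ubiquitin SlIDD12 rose 84.3-fold, a log2 fold change of 6.40 ± 0.63 (limma adjusted p = 2.10e-05). At 24 h control wells read 24.63, 26.12 and 27.87 and flooded wells 21.20, 21.32, 21.18 and 21.16. The groups again did not overlap, and the controls spread over more than 3 cycles. The rise at 24 h was 10.3-fold, or 3.37 ± 0.73 (limma adjusted p = 0.00365). Mean Ct under flood differed little between the times (21.75 and 21.21), whereas that of controls was 29.30 at 2 h and 26.21 at 24 h.

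The other members placed in its group here, SlIDD5 and SlIDD-like1, did not pass at either time with ubiquitin of both plates. SlIDD5, which in tomato sets bundle sheath extensions in leaf veins, had log2 fold changes of -0.34 (95% confidence interval -1.27 to 0.59) at 2 h and -0.05 (-0.86 to 0.75) at 24 h. SlIDD5 passed as lower at 24 h once same-plate ubiquitin was used, with -0.79 (adjusted p = 0.0145). SlIDD-like1, known for its effect on stigma position, had -0.53 (-1.77 to 0.70) and -0.66 (-1.46 to 0.15).

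In the SlIDD6 group (with SlIDD14, SlIDD13 and SlIDD7), 3 of 4 members rose at 2 h, where 31.8% of all targets did, with a group median of 2.49 on the log2 scale against 0.17 over all targets. At 24 h none of the 4 passed, and the median was 0.25 against 0.35 over all targets. SlIDD14 (Solyc10g084180, chromosome 10), which acts with SlIDD13 on stem thickness and leaf shape, read Ct 22.71 and 23.71 in the 2 control wells at 2 h and 19.08, 18.42 and 19.21 in the 3 flooded wells. It rose 8.91-fold, a log2 fold change of 3.16 ± 0.50 (limma adjusted p = 6.47e-04). At 24 h its control wells read 24.11 and 24.66 and its flooded wells 21.44, 22.57 and 23.02, still without overlap in Ct. Relative to ubiquitin this was a difference of 0.42 ± 0.61 (limma adjusted p = 0.616), which did not pass.

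SlIDD6 (Solyc11g069240, chromosome 11) read 29.04, 27.93 and 27.49 in control roots at 2 h and 24.02, 24.59, 24.24 and 24.59 under flood. No wells overlapped, and the transcript rose 6.25-fold (log2 2.64 ± 0.44, limma adjusted p = 2.93e-04). At 24 h control wells read 27.39, 26.44, 26.65 and 27.45, and flooded wells 25.26, 25.73, 25.21 and 27.18. The last of these lay among the controls. The log2 fold change at 24 h was -0.49 ± 0.56 (limma adjusted p = 0.540), with the opposite sign to that at 2 h. SlIDD6 passed as lower at 24 h with ubiquitin by plate and well row (-1.84, limma adjusted p = 0.0231), and with no reference as higher (1.14, limma adjusted p = 0.0396). The fit by well row kept only the flooded wells at 25.73 and 27.18, whose rows had a ubiquitin value. With same-plate ubiquitin and all its wells SlIDD6 did not pass at 24 h.

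SlIDD13 (Solyc09g007550, chromosome 9) read 22.13, 19.44 and 18.58 in control roots at 2 h and 17.14, 16.12, 16.47 and 16.51 under flood. The wells did not overlap, but the first control well lay more than 2 cycles from the next. It rose 5.06-fold (log2 2.34 ± 0.77, limma adjusted p = 0.0342). Without that control well row the value was 1.23 (adjusted p = 0.0481). The call was lost when any 1 of the 4 flooded well rows was left out (adjusted p up to 0.0927) and against the mean of all targets (1.52, adjusted p = 0.0944). At 24 h control wells read 18.66, 18.18 and 18.42, and flooded wells 15.63, 16.03, 16.09 and 16.02. The groups stood apart in Ct, while the log2 fold change relative to ubiquitin of both plates was 0.85 ± 0.38 (limma adjusted p = 0.102). With ubiquitin of the same plate SlIDD13 passed at 24 h, with 1.62 (adjusted p = 1.30e-04).

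SlIDD7, the remaining member, had log2 fold changes of 0.19 (95% confidence interval -0.74 to 1.12) at 2 h and 0.08 (-0.79 to 0.95) at 24 h.

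SlIDD9 (Solyc06g072360, chromosome 6) is described by the study as close to Arabidopsis STOP1, a zinc finger factor known for tolerance of protons and aluminum. In the study's alignment, though, the zinc fingers of this locus resemble those of SlIDD12, and the study finds it syntenic with SlIDD-like1. In control roots at 2 h the wells of SlIDD9 read 28.32, 29.57, 29.07 and 28.38, and in flooded roots 25.13, 24.96, 25.08 and 25.25. The flooded wells were tightly grouped and more than 3 cycles before all controls. SlIDD9 rose 5.98-fold (log2 2.58 ± 0.36, limma adjusted p = 4.07e-05). At 24 h control wells read 27.23, 27.50 and 27.47 and flooded wells 25.03, 24.79 and 24.92. These did not overlap either, but the log2 fold change was 0.86 ± 0.37 (limma adjusted p = 0.102) and did not pass. SlSTOP1, which carries the same locus name as SlIDD9 in another sheet of the deposit and was kept as a separate assay, had control wells at 2 h from 20.21 to 24.64. Its log2 fold changes of 1.12 (95% confidence interval -1.09 to 3.34) and -0.54 (-2.44 to 1.37) did not pass, and their intervals were the widest of the 22 targets at 2 h and among the widest at 24 h. At 2 h SlSTOP1 passed as higher with ubiquitin of the same plate and well row (2.19, limma adjusted p = 0.00617). That fit lost the earliest control well, at 20.21, whose row had no ubiquitin value.

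SlIDD3 (Solyc09g074780, chromosome 9), known for expression in the exodermis and cortex of the tomato root, rose at both times. Control wells at 2 h read 24.17, 23.23, 23.24 and 23.11, and flooded wells 20.32, 20.47, 20.21 and 20.40. The rise was 3.83-fold, a log2 fold change of 1.94 ± 0.34 (limma adjusted p = 1.89e-04). At 24 h controls read 23.75, 24.13 and 24.58 and flooded wells 19.42, 19.18, 19.30 and 19.21. The flooded wells spanned less than 1 cycle at each time and overlapped no control. The rise at 24 h was 9.48-fold, or 3.24 ± 0.39 (limma adjusted p = 6.48e-06). SlIDD15, the other member of its group, had -0.31 (95% confidence interval -1.22 to 0.60) at 2 h and -0.44 (-1.34 to 0.46) at 24 h.

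With ubiquitin of both plates, though not with every reference, SlIDD2 (Solyc06g062670, chromosome 6) was the single SlIDD gene of 19 that passed as lower at either time. It stands with SlIDD10 and SlIDD11 beside Arabidopsis IDD7 and rice IDD2, a repressor of lignin biosynthesis genes. Control wells at 2 h read 19.09, 18.45, 18.19 and 18.04, and flooded wells 20.35, 19.46, 19.46 and 20.45. All flooded wells came up later than all controls, although ubiquitin came up earlier. SlIDD2 fell 6.23-fold (log2 -2.64 ± 0.39, limma adjusted p = 7.43e-05). At 24 h controls read 18.45, 18.56, 18.65 and 19.03 and flooded wells 21.26, 21.06 and 20.73. The fall at 24 h was 15.7-fold (log2 -3.97 ± 0.38, limma adjusted p = 8.54e-07). With no reference the falls were -1.49 at 2 h and -2.34 at 24 h, and both passed.

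SlIDD10 and SlIDD11, of the same group, passed at neither time with ubiquitin of both plates. At 2 h their log2 fold changes were 0.15 (95% confidence interval -0.55 to 0.85) and 0.07 (-0.69 to 0.82). At 24 h they were 1.41 (-0.62 to 3.44) and 1.16 (-0.28 to 2.60). In both genes 1 flooded well, of the same plate row, stood earlier than the other 2. SlIDD10 read 17.19 there against 20.25 and 20.22, and SlIDD11 15.69 against 17.60 and 17.81. Without that row SlIDD10 was at 0.33 and SlIDD11 at 0.43. With ubiquitin of the same plate and well row SlIDD10 and SlIDD11 were at 2.84 and 1.91 at 24 h. There the early well was the only flooded well left in each gene, since the rows of the others had no ubiquitin value.

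Outside the family, CRF5 and STF4 moved in opposite directions at both times. CRF5 bears the name of a cytokinin response factor, of the AP2/ERF transcription factors. In control roots at 2 h it read 22.81, 20.59 and 20.73, and in flooded roots 17.18, 17.11, 16.78 and 17.14. The first control well stood apart from the other 2, and all of them lay more than 3 cycles behind the flooded wells. CRF5 rose 9.04-fold (log2 3.18 ± 0.55, limma adjusted p = 5.98e-04). At 24 h controls read 22.21, 22.37 and 22.72 and flooded wells 16.28, 16.13, 16.21 and 16.48. Its rise of 23.1-fold (log2 4.53 ± 0.37, limma adjusted p = 7.33e-07) was the largest of the 22 at that time.

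STF4, for which the sources used here give no annotation, read 18.32, 18.73 and 17.74 in control roots at 2 h and 20.10, 20.56, 20.09 and 20.27 under flood. It fell 8.82-fold (log2 -3.14 ± 0.36, limma adjusted p = 2.10e-05). At 24 h controls read 18.45, 18.49, 17.38 and 17.59 and flooded wells 20.26, 20.35, 20.54 and 20.53. As with SlIDD2, flooded wells came up after every control well at both times. The fall at 24 h was 16.8-fold (log2 -4.07 ± 0.42, limma adjusted p = 7.98e-07).

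The SlIDD1 group (SlIDD1, SlIDD17 and SlIDD18), kin of Arabidopsis IDD1 and IDD2 of gibberellin signaling, had 0 of 3 members past the threshold at both times, where 40.9% of all targets passed at 2 h and 22.7% at 24 h. Its log2 fold changes lay between -0.26 and -0.07 at 2 h and between 0.23 and 0.97 at 24 h. Their direction at 2 h differed with the reference. Against the mean of all targets SlIDD1 (-0.89), SlIDD17 (-1.08) and SlIDD18 (-0.99) passed as lower, and with no reference they passed as higher (1.08, 0.89 and 0.97). SlIDD18 (Solyc04g080130, chromosome 4) read 23.28, 23.59, 23.04 and 23.26 in control roots at 2 h and 23.13, 22.29, 21.94 and 21.91 under flood, and the first flooded well lay among the controls. At 24 h controls read 23.54, 23.92, 23.94 and 24.39 and flooded wells 21.21, 21.25, 21.41 and 21.52, with no overlap. Its log2 fold change was -0.18 ± 0.36 (limma adjusted p = 0.770) at 2 h and 0.97 ± 0.38 (limma adjusted p = 0.0828) at 24 h. At 24 h SlIDD18 passed with each of the 4 other references tried, with log2 fold changes of 0.59 (mean of all targets), 1.74 (ubiquitin by plate), 1.76 (ubiquitin by plate and well row) and 2.60 (no reference). SlIDD17 passed at 24 h against ubiquitin of its own plate (0.99, adjusted p = 0.00514) and had 0.23 with that of both plates.

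SlIDD4, a relative of the Arabidopsis root patterning factor RAVEN, had 0.71 (95% confidence interval -0.34 to 1.76) at 2 h and 0.81 (-0.17 to 1.78) at 24 h. SlIDD8 is kin to Arabidopsis IDD3 and IDD8, of root development, and had 1.17 (-0.10 to 2.45) and 0.97 (0.11 to 1.84, adjusted p = 0.0919). Its flooded wells at 2 h read 22.79, 20.16, 20.32 and 20.24 against controls from 22.96 to 23.40. Without the row of the first well SlIDD8 passed at 2 h, with 1.79 (adjusted p = 8.89e-05 from limma). SlIDD16, linked to salt and drought tolerance, had -0.18 (-1.22 to 0.87) and -0.56 (-1.45 to 0.34).

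**Figure D3:**
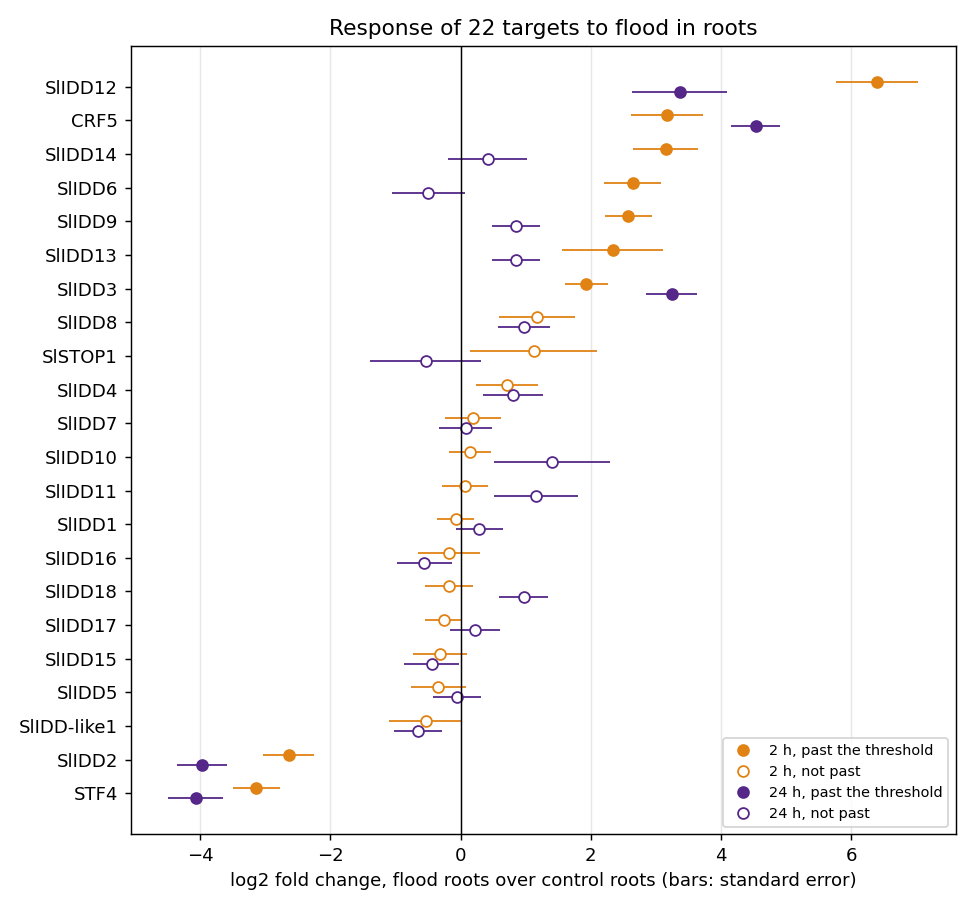
Log2 fold change of flood roots over control roots (horizontal axis, bars are standard errors) for 22 targets at 2 h (orange) and 24 h (purple); filled points passed the test. SlIDD12 stood at 6.40 at 2 h and 3.37 at 24 h, and STF4 and SlIDD2 lay lowest at both times.

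Of 4 SlIDD gene pairs in syntenic blocks of the tomato genome, 3 were split at 2 h, with 1 member past the threshold. Of all single targets 40.9% passed at 2 h and 22.7% at 24 h, and at such shares split pairs are common among any targets. The count is thus no sign that partners diverged. SlIDD2 fell at both times and SlIDD11 passed at neither. SlIDD3 rose at both times and SlIDD10 passed at neither, and SlIDD9 rose at 2 h beside SlIDD-like1 at -0.53. In the fourth pair neither SlIDD1 nor SlIDD17 passed. The differences between partners were not tested.

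The change of the response between the times was tested directly. The flood response at 24 h was lower than that at 2 h for 4 of 22 targets (18.2%) and higher for 0, by the limma interaction with ubiquitin of both plates. SlIDD6 differed by -3.14 ± 0.74 (limma adjusted p = 0.00692), SlIDD14 by -2.74 ± 0.82 (limma adjusted p = 0.0350) and SlIDD9 by -1.72 ± 0.54 (limma adjusted p = 0.0350). These 3 passed with each of the 3 other references tried as well. SlIDD12 differed by -3.03 ± 1.02 (limma adjusted p = 0.0460), and with ubiquitin of the same plate its difference of -2.53 did not pass. The further differences of SlIDD3 (1.31, adjusted p = 0.0793), CRF5 (1.36, adjusted p = 0.177), SlIDD2 (-1.33, adjusted p = 0.0990) and STF4 (-0.93, adjusted p = 0.260) did not pass. With other references some responses were higher at 24 h. CRF5, SlIDD18 and SlIDD17 passed as higher with each of the 3 others, and with ubiquitin of their own plate differed by 1.86, 1.65 and 0.99 (limma adjusted p = 0.0414, 0.00838 and 0.0463). SlIDD3 and SlIDD1 passed as higher against the mean of all targets (1.75 and 0.80) and with no reference (1.79 and 0.84). SlIDD2 passed as lower with ubiquitin of its own plate (-1.87, limma adjusted p = 0.00838).

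Most calls were kept with other references. At 2 h 8 of the 9 calls and at 24 h all 5 were kept with same-plate ubiquitin, with that of the same plate and well row, with the mean of all targets and with no reference. The exception was SlIDD13. In the fit by plate and well row SlIDD14 kept a single control well at 2 h, since the row of the other had no ubiquitin value. At 24 h ubiquitin of the same plate gave 9 calls, 6 higher and 3 lower, in place of 5. Against the mean of all targets, 2 h gave 6 higher and 7 lower, with SlIDD5 (-1.16) and SlIDD15 (-1.13) among the latter, and 24 h gave 4 and 5. With no reference 15 were higher and 2 lower at 2 h, and 19 and 2 at 24 h. The median of all targets was then -0.65 and -0.03 with the mean of all targets, and 1.32 and 1.98 with no reference.

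**Figure D4:**
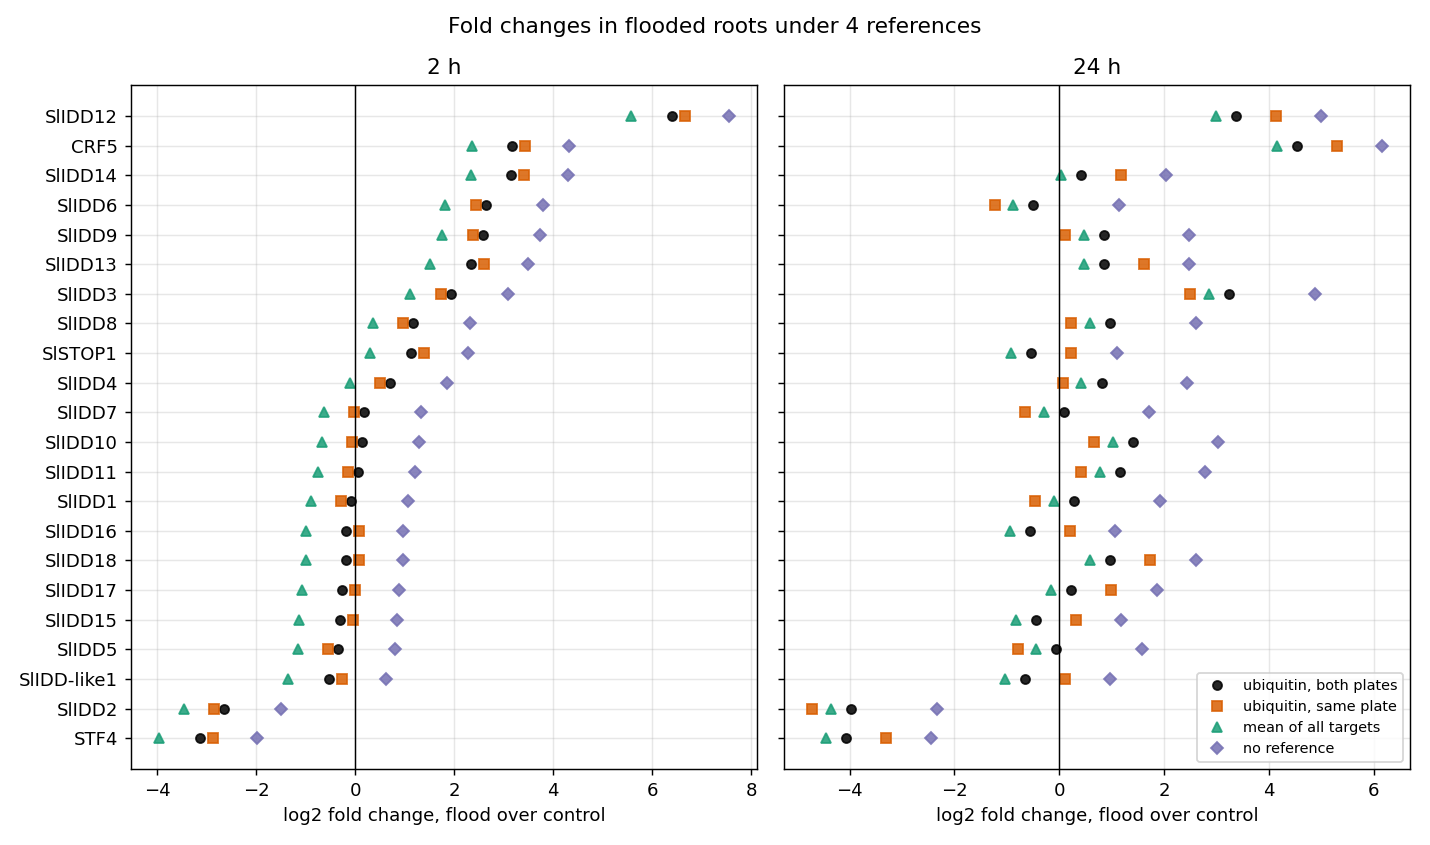
Log2 fold change of flood over control roots (horizontal axis) for each of 22 targets at 2 h and 24 h with 4 references: ubiquitin of both plates, ubiquitin of the same plate, the mean of all targets, and none. CRF5, SlIDD12 and SlIDD3 stayed above 0 and SlIDD2 and STF4 below 0 with each reference, while values near 0 such as those of SlIDD1 changed sign.

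The control plates bear on these values. At 2 h the control roots of SlIDD12 had a mean Ct of 29.30 and the control shoots 23.10, against 21.75 in flooded roots. For 8 of the 9 targets that passed at either time, mean Ct of flooded roots at 2 h lay nearer to that of control shoots than to that of control roots, and for 7 of the other 13. At 24 h these counts were 6 of 9 and 7 of 13. The 9 had passed for their distance from control roots in these same values, so their counts are partly fixed by that choice. Whether control plates of the tissues were exchanged was not tested. For CRF5 at 24 h the controls of both tissues were late, with 22.43 in roots and 22.90 in shoots against 16.27 in flooded roots. For STF4 at 2 h they were both at 18.27 against 20.26 under flood.

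The response in roots was set against that of shoots, by the limma interaction. The labels do not say whether roots and shoots came from the same seedlings, and the fit treats them as separate. The response differed for 15 of 22 targets at 2 h (68.2%), 6 higher (27.3%) and 9 lower (40.9%) in roots. At 24 h it differed for 14 (63.6%), 2 higher (9.09%) and 12 lower (54.5%). With each of the 4 references 10 passed at 2 h (5 higher, 5 lower) and 7 at 24 h (1 higher, 6 lower). Ubiquitin at 24 h had a mean Ct of 15.72 in flooded and 15.56 in control shoots, against 15.27 and 16.90 in roots. SlIDD2 fell in roots but had 2.27 and 2.03 in shoots, a difference of -4.91 ± 0.82 (limma adjusted p = 2.08e-05) at 2 h and -6.00 ± 0.61 (limma adjusted p = 1.46e-08) at 24 h. STF4 differed by -4.32 ± 0.52 (limma adjusted p = 1.91e-07) and -5.34 ± 0.74 (limma adjusted p = 5.70e-07). The response of SlIDD14 was higher in roots by 5.88 ± 0.72 (limma adjusted p = 1.62e-06) and 3.20 ± 0.92 (limma adjusted p = 0.00469). These 6 differences passed with every reference tried, and so did those of SlIDD18, which had no call in roots and differed by -3.80 and -4.21, and of SlIDD15 (-4.61 and -3.77). The response was lower in roots for SlIDD11 at 2 h (-4.12), and for SlIDD17 (-3.58) and SlIDD1 (-3.11) at 24 h, also with every reference tried.

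The flood response of SlIDD12 was higher in roots than in shoots by 5.01 ± 0.76 (limma adjusted p = 9.43e-06) at 2 h. At 24 h the difference was 0.66 (95% confidence interval -1.12 to 2.45), and it passed with each of the 3 other references (1.59 with ubiquitin of the same plate). CRF5 differed by 2.57 ± 0.65 (limma adjusted p = 0.00130) at 2 h and by 1.50 (adjusted p = 0.0627) at 24 h, where it too passed with each other reference. The response of SlIDD3 was higher in roots by 2.16 and 1.99, the latter without passing with ubiquitin of the same plate (0.66). That of SlIDD6 was higher in roots at 2 h by 2.46 and lower at 24 h by 2.92 on the log2 scale. SlIDD9 had 1.65 at 2 h and -1.88 at 24 h. The value of SlIDD9 at 2 h did not pass with ubiquitin of the same plate (1.45), and those of SlIDD6 and SlIDD9 at 24 h did not pass with the mean of all targets or with no reference.

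**Figure D5:**
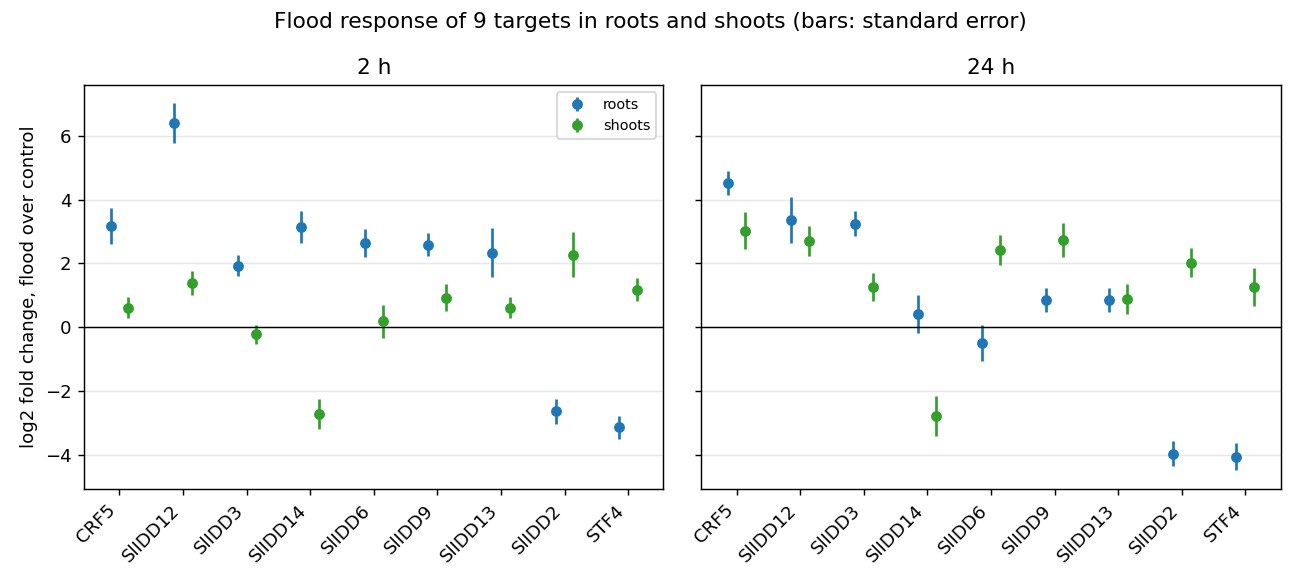
Log2 fold change of flood over control (vertical axis, bars are standard errors) for 9 targets in roots (blue) and shoots (green) at 2 h and 24 h. STF4 and SlIDD2 lay below 0 in roots and above 0 in shoots, and SlIDD14 lay below 0 in shoots at both times.

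Flooded roots were also set against salt-treated and low pH roots directly, since these stresses share the control wells. Against salt roots 8 targets differed at 2 h (36.4%) and 11 at 24 h (50%). Against low pH roots 4 differed at 2 h (18.2%) and 5 at 24 h (22.7%), with ubiquitin of low pH roots at a mean Ct of 14.55 and 17.49 on plates 1 and 2 at 2 h. CRF5 was higher under flood than under salt by 3.53 ± 0.22 (limma adjusted p = 3.24e-11) at 2 h and by 3.96 at 24 h, and higher than under low pH by 3.98 and 5.43. STF4 was lower than under salt by -2.82 ± 0.24 (limma adjusted p = 1.45e-08) and -3.80, and than under low pH by -3.39 and -2.83. SlIDD2 was lower in the same 4 comparisons, by -1.04, -1.99, -2.72 and -3.44. These 12 differences passed with each of the 4 references. SlIDD12 did not pass in any with ubiquitin of both plates, with -0.47 (95% confidence interval -0.93 to -0.01) and -0.22 (-0.54 to 0.10) against salt and -0.16 (-1.60 to 1.28) and 0.85 (-0.35 to 2.05) against low pH. Against salt at 2 h it passed as lower with the mean of all targets (-0.55) and with no reference (-0.81), and against low pH it passed as higher with no reference (0.69 at 2 h and 0.35 at 24 h).

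SlIDD14 was lower under flood than under salt by -1.94 ± 0.29 (limma adjusted p = 1.04e-04) at 2 h and -5.13 ± 0.37 (limma adjusted p = 2.18e-06) at 24 h, both kept with each reference. SlIDD3 was higher than under salt by 1.76 ± 0.21 (limma adjusted p = 5.28e-06) at 24 h. SlIDD9 was lower than under low pH by -2.63 ± 0.64 (limma adjusted p = 0.0157) at 2 h, and SlIDD13 was higher than under low pH by 2.40 ± 0.52 (limma adjusted p = 0.0107) at 24 h. These came, with ubiquitin by plate, to -1.18 (limma adjusted p = 0.0168) and 0.98 (limma adjusted p = 0.0222).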

How the data were processed

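Roots of flooded and control tomato seedlings were measured by qRT-PCR of 22 targets and ubiquitin. The authors deposited Ct values, in cycles of the PCR for single wells and not normalized, an other unit than counts, made on a Bio-Rad system as the study's methods state. The deposited normalized and fold change sheets, made by the authors with the 2-ddCt method, were not used.

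On both plates the upper 4 well rows were taken as 2 h and the lower 4 as 24 h, a layout taken over from earlier work on these data, where it was chosen by matching the study's own fold change tables: 212 of 258 log2 values lay within 0.1 of them, and 37 of 44 for flooded roots. This is no independent evidence. The labels instead tie the times to the plates. Of 384 wells 29 had no value, for reasons not given in the sources used here. On the first plate 6 wells with irregular names were left out, and those of the second plate were kept. Used wells per group numbered 85 and 84 in controls and 93 and 87 under flood, at 2 h and 24 h.

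Minus delta Ct was taken against the group mean of ubiquitin and each comparison was fitted by lmFit and eBayes of limma 3.58.1 (R 4.3.3). Standard errors include that of ubiquitin, with degrees of freedom after Satterthwaite. Two-sided p-values were adjusted over 22 targets (Benjamini-Hochberg, threshold 0.05). Differences between times, tissues and stresses were fitted likewise. The scripts were tested on simulated data. Ubiquitin was tested by exact permutation. Python 3.11.15 ran the other steps, with matplotlib 3.10.9, scipy 1.17.1, pandas 2.3.3 and numpy 2.4.6.

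Any target could be named. Well values are given for those that passed and for those the study's text names for flooded roots. The members, gene groups and syntenic pairs were chosen with earlier results of these data known. Alternatives were other references, the well row as a block, leaving out each well row, other error models and unadjusted p. Locus names come from the study's gene list, and 19 of 19 SlIDD loci matched the RefSeq annotation. Primer sequences were not used here.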

Additional observations from a re-analysis of the deposited data

Results flagged for a closer look

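In 63 groups of 4 or more wells, 5 had a well far from the others, where chance alone gives about 1 in 20. SlIDD8 in flooded roots at 2 h had a well at Ct 22.79 beside others from 20.16 to 20.32, and SlIDD16 in the same group one at 21.04 beside 20.03 to 20.12. SlIDD3 in control roots at 2 h had one at 24.17 beside 23.11 to 23.24. In flooded roots at 24 h SlIDD13 had one at 15.63 beside 16.02 to 16.09 and SlIDD17 one at 19.30 beside 19.66 to 19.69.

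The flood response in roots differed between the times by the limma interaction for SlIDD6 (-3.14), SlIDD12 (-3.03), SlIDD14 (-2.74) and SlIDD9 (-1.72), as 24 h minus 2 h on the log2 scale. It differed from that in shoots, as roots minus shoots, at 2 h for SlIDD14 (5.88), SlIDD12 (5.01), CRF5 (2.57), SlIDD6 (2.46), SlIDD3 (2.16), SlIDD9 (1.65), SlIDD4 (-1.72), SlIDD1 (-1.75), SlIDD5 (-1.85), SlIDD17 (-2.27), SlIDD18 (-3.80), SlIDD11 (-4.12), STF4 (-4.32), SlIDD15 (-4.61) and SlIDD2 (-4.91). At 24 h it differed for SlIDD14 (3.20), SlIDD3 (1.99), SlIDD9 (-1.88), SlIDD-like1 (-2.07), SlIDD4 (-2.10), SlIDD5 (-2.22), SlIDD16 (-2.38), SlIDD6 (-2.92), SlIDD1 (-3.11), SlIDD17 (-3.58), SlIDD15 (-3.77), SlIDD18 (-4.21), STF4 (-5.34) and SlIDD2 (-6.00). Of these differences from shoots, 10 at 2 h and 7 at 24 h passed with each of the 4 references. SlIDD4, SlIDD5, SlIDD-like1, SlIDD16, SlIDD6 and SlIDD9 at 24 h passed with 2 of the 4.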

How the results depend on the processing

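With ubiquitin of both plates, 9 targets passed at 2 h and 5 at 24 h. Against the mean of all targets 7 were lower at 2 h, and with no reference 17 passed, 15 of them higher. At 24 h they were 9 in all and 5 lower against the mean of all targets, 21 and 19 higher with no reference, 9 and 6 higher with ubiquitin of the same plate, 12 with 8 higher and 4 lower with ubiquitin of the same plate and well row, 10 with 7 higher without the error of the ubiquitin means, and 9 with 7 higher by unadjusted p. The exact permutation test gave 0 calls at both times after adjustment. Its p cannot go below 0.0286 with 4 against 4 wells, so an adjusted call would need many targets at that floor together. By unadjusted p it gave 4 calls (3 higher, 1 lower) at 2 h and 2 (1 higher, 1 lower) at 24 h. In the fits by plate and well row, wells whose row had no ubiquitin value dropped out. This left 1 control well of SlIDD14 at 2 h and 1 flooded well each of SlIDD9, SlIDD10 and SlIDD11 at 24 h. Leaving out each well row gave 8 to 9 calls at 2 h and 5 at 24 h. For the difference between times, 4 targets passed, against 9 with the mean of all targets, 9 with no reference and 7 with ubiquitin of the same plate. Against salt roots at 2 h, 4 in place of 8 passed with ubiquitin of the same plate. Against low pH roots 4 passed at 2 h and 5 at 24 h, but 11 and 15 against the mean of all targets, 13 and 15 with no reference and 7 and 11 with ubiquitin of the same plate. On the first plate alone ubiquitin changed by -1.35 (exact p = 0.0286) at 2 h and -2.37 (exact p = 0.133) at 24 h. On the second the changes were -0.89 (exact p = 0.0571) and -0.86 (exact p = 0.0571). Each is the smallest p that the exact permutation test can give for these well numbers. Flooded wells came up before every control well on both plates at both times. Leaving out a row moved the change over both plates between -1.22 and -1.04 at 2 h and between -1.68 and -1.57 at 24 h. The cause of these differences was not tested.

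With the well row as a block, 9 targets passed at 2 h and 5 at 24 h. Wells of the same row in flooded and control roots correlated by -0.12 to 0.37 over targets, so rows do not pair the wells, and the replicate block changed the sign of SlIDD14 at 24 h (-0.038) and no call.

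Changes of sign concerned targets that had not passed. With the mean of all targets the log2 values at 2 h were -0.11 for SlIDD4, -0.63 for SlIDD7, -0.67 for SlIDD10 and -0.75 for SlIDD11, and at 24 h -0.10 for SlIDD1, -0.30 for SlIDD7 and -0.15 for SlIDD17. With no reference they were at 2 h 1.08 for SlIDD1, 0.81 for SlIDD5, 0.62 for SlIDD-like1, 0.84 for SlIDD15, 0.98 for SlIDD16, 0.89 for SlIDD17 and 0.97 for SlIDD18, and at 24 h 1.57 for SlIDD5, 1.14 for SlIDD6, 0.97 for SlIDD-like1, 1.19 for SlIDD15, 1.07 for SlIDD16 and 1.09 for SlSTOP1. With ubiquitin of the same plate they were at 2 h -0.014 for SlIDD7, -0.056 for SlIDD10, -0.14 for SlIDD11, 0.089 for SlIDD16, 0.0065 for SlIDD17 and 0.088 for SlIDD18, and at 24 h -0.45 for SlIDD1, -0.66 for SlIDD7, 0.11 for SlIDD-like1, 0.33 for SlIDD15, 0.21 for SlIDD16 and 0.23 for SlSTOP1. With ubiquitin of the same plate and well row, also in the exact permutation test, they were at 2 h -0.014 for SlIDD7, -0.056 for SlIDD10, -0.14 for SlIDD11, 0.34 for SlIDD15, 0.027 for SlIDD17 and 0.097 for SlIDD18, and at 24 h -0.31 for SlIDD1, -0.55 for SlIDD7, 0.056 for SlIDD-like1, 0.38 for SlIDD15, 0.25 for SlIDD16 and 0.085 for SlSTOP1. Over the fits that left out a well row, values ranged at 2 h from -0.18 to 0.069 for SlIDD1, -0.15 to 0.47 for SlIDD7, -0.10 to 0.24 for SlIDD11, -0.66 to 0.13 for SlIDD16 and -0.35 to 0.075 for SlIDD18, and at 24 h from -0.17 to 0.084 for SlIDD5, -0.11 to 0.27 for SlIDD7, -0.094 to 0.77 for SlIDD14 and -1.10 to 0.098 for SlSTOP1.

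With 2 to 4 wells per target and group, spread between wells limits the precision, and differences under about 1 on the log2 scale mostly did not pass. At 24 h the standard errors also include the gap in ubiquitin between the plates of control roots (mean Ct 17.71 and 16.09). For SlIDD18 at 24 h the standard error was 0.38, and 0.20 without the error of the ubiquitin means.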
